A study of Homo sapiens with 4 samples.

Results

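Dense clusters of TBX3 sites were stretches of the genome where at least 3 binding sites followed one another at short distances. The sites were chosen from the positions of ChIP-seq summits, the single bases that mark the centre of each binding peak, in 2 replicates of the human melanoma cell line 501mel. A summit was used when it was mutually nearest to a summit of the other replicate within 200 bp, lay on chromosomes 1 to 22 or X, and was not annotated to a satellite repeat. Consecutive summits at most 12.5 kb apart were then linked, and a cluster was defined by 3 or more linked summits. Of 22702 sites shared by the replicates, 18719 met these conditions, and 2837 of them (15.2%) fell into 750 clusters. The other 15882 stood alone or in pairs. Both the clustering and the sharing were defined by measured summit positions, so the size, spacing and position of the clusters are described and not tested.

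The study concerned TBX3 in pigment biology and melanoma, per its title. Chromatin immunoprecipitation was done with an anti-HA antibody on TBX3 that carried a 3xHA tag, in cells grown in RPMI-1640 with fetal bovine serum and with no treatment in the labels. There were 2 immunoprecipitated samples (TBX3-3xHA ChIP, replicates 1 and 2) and 2 input samples of the same line, and the inputs were not analysed here. The labels do not say whether the replicates were separate cultures, nor how the tagged protein was expressed, and every value below comes from a single line.

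T-box proteins such as TBX3 bind DNA through their conserved T-box domain, and TBX3 is best known as a repressor of transcription. In the melanocyte lineage the pigment genes are driven by MITF, a factor that recognises E-box sequences and the extended form known as the M-box. Genes that fix cell identity often lie beneath several regulatory elements at once, and 12.5 kb is the distance by which such elements are conventionally joined. No histone mark, coactivator or transcript was measured in these files, so the clusters are called by their sites alone.

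The promoters of 4 genes show where single clustered summits lay relative to a gene start. The set comprises ZEB2, DCT and TYR, whose windows held M-box letters, and MITF, whose window held none of the letters searched. Each window runs from 250 bases before to 50 after a start listed by RefSeq for GRCh38.p14, 5′ to 3′ on the gene's own strand. Capitals mark TCATGTG or its reverse complement CACATGA. ZEB2 lies at chr2:144520070-144520369 on the minus strand, DCT at chr13:94479633-94479932 on the minus strand, TYR at chr11:89177625-89177924 on the plus strand and MITF at chr3:69936342-69936641 on the plus strand.
ZEB2: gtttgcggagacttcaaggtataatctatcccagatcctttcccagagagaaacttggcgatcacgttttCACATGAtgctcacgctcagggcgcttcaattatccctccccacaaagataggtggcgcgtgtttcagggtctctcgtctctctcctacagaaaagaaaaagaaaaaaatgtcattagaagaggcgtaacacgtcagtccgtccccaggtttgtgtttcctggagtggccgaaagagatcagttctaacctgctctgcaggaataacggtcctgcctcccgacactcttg
DCT: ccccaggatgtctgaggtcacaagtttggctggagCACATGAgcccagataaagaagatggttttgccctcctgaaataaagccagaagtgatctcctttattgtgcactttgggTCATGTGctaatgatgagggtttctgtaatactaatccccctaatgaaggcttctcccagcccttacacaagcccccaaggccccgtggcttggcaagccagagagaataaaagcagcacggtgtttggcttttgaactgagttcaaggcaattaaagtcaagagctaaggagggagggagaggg
TYR: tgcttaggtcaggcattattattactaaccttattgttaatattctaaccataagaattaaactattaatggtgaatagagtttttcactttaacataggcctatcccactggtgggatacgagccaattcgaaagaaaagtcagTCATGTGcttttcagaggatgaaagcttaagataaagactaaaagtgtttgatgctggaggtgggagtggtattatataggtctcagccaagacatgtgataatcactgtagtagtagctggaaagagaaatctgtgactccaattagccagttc
MITF: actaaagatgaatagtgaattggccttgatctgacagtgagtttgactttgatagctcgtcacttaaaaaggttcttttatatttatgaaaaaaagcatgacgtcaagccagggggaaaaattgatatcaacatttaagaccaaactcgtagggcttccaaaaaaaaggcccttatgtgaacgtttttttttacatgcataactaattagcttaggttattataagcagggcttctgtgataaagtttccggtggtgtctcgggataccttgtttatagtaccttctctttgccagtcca

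In the ZEB2 window, the first base of the match lay 180 bases upstream of the start and 31 bp from the summit. The DCT window held matches that began 215 and 135 bases upstream, at 55 and 25 bp from the summit. In TYR the match began 105 bases upstream, at 78 bp from the summit. The MITF summit lay 13 bases downstream of the start. The windows of ETV1 and of LOC124907754, an uncharacterised locus in the cluster over QPCT, were searched as well and held none of the letters. Searched on both strands were GGTGTGA (T-box), TCATGTG (M-box), CACGTG (E-box), AACAAAG (SOX) and TGANTCA (AP-1), none of which contains another.

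Of the promoter windows searched, 58 had a clustered summit inside or within 100 bp, and some of these overlap each other or share the same summit. The clustered SLC45A2 summit annotated to a promoter was not matched to any window of this set, so that promoter was not searched. TCATGTG occurred in 9 of the 58 (15.5%), against 2.90% of all 34961 promoters. TGANTCA occurred in 13 (22.4%), against 7.68%. CACGTG and AACAAAG each occurred in 7 (12.1%), against 7.27% and 5.19%. The T-box letters GGTGTGA occurred in 3 (5.17%), against 3.46%. These shares are descriptions of letters in a window, and the differences were not tested. No share was computed for promoters with a summit outside clusters, so the values do not set clustered summits apart from other TBX3 sites.

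Most clusters were small. Of the 750, 472 (62.9%) held 3 summits, 153 held 4, 66 held 5, 28 held 6 and 31 held 7 or more. Only 12 held 10 or more, and the longest held 31. The distance from first to last summit had a median of 12812.5 bp, with quartiles of 8410 and 18000 bp and extremes of 2242 and 88832 bp. Neighbouring summits within a cluster lay a median of 4358 bp apart over 2087 gaps, and 534 bp apart at the closest. Together the clusters spanned 10.9 Mb. The median span rose from 10700 bp with 3 summits to 32500 bp with 7 or more.

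**Figure D1:**
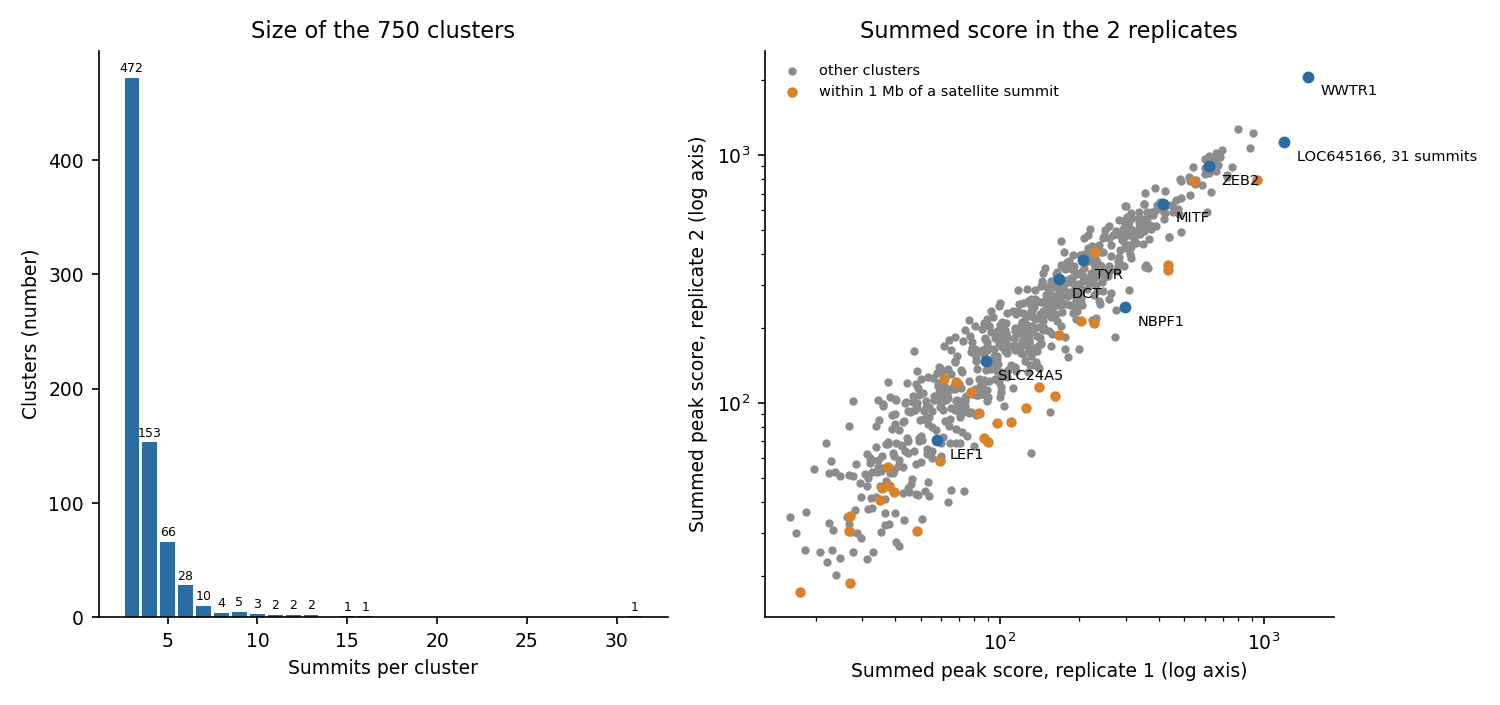
Left, the number of clusters (vertical axis) by summits per cluster (horizontal axis), with the count over each bar: 472 of the 750 clusters held 3 summits and 1 held 31. Right, each point is a cluster, with its summed peak score in replicate 1 (horizontal log axis) and replicate 2 (vertical log axis); WWTR1 is at the top right at 1469 and 2075, and orange points are the 31 clusters within 1 Mb of a satellite summit.

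Some clusters stood apart before any gene was considered. The cluster with the most summits, 31, lay in intergenic sequence on chromosome 1 at 143187003 to 143275835, near LOC645166. Clusters of 16 and 12 summits lay near LOC441666 on chromosome 10, at 41844316 to 41915874 and at 42067329 to 42101507. In the cluster of 16, 11 summits were annotated to simple repeats. In all, 31 clusters with 142 summits lay within 1 Mb of a replicate 1 summit annotated to a satellite repeat. Of these 31, 24 (77.4%) had a lower rank by summed score in replicate 2 than in replicate 1, against 336 of the other 719 (46.7%). Only 5 of the 31 overlapped a protein-coding gene, against 433 of the 719. The part that repeated sequence plays in these calls was not tested.

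The peak score is the authors' own value for each summit, on a scale that is not stated, and it is compared here only within a replicate. Summed over the members of a cluster, it had a median of 123 in replicate 1, with quartiles of 61.6 and 215, and of 192 in replicate 2, with quartiles of 100 and 336. The highest sums were 1469 and 2075, both over WWTR1, and the lowest were 16.1 and 17.4. Ranks of the sums followed each other between replicates, with a Spearman correlation of 0.95 across the 750 clusters, which share the libraries and were all called in both.

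The summed score followed the highest summit of a cluster more closely than the number of summits. Across the 750 clusters, the summed replicate 1 score had a Spearman correlation of 0.95 with the cluster's highest score and of 0.37 with its number of summits. These sums contain the highest score, so the first relation is partly built in. The highest summit carried a median of 55.5% of the sum in replicate 1 and 56.4% in replicate 2. It carried more than 50% in 480 clusters of replicate 1 and in 489 of replicate 2. The same summit was highest in both replicates in 617 clusters (82.3%). In clusters of 7 or more summits the median share of the highest was 34.6% and 35.4%. Among the 278 clusters of 4 or more summits, the highest was the first or last in 134. Pooled over these clusters, ends made up 39.1% of summits. That pooled share weights larger clusters more, so it is not the matching baseline for a count of clusters.

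**Figure D2:**
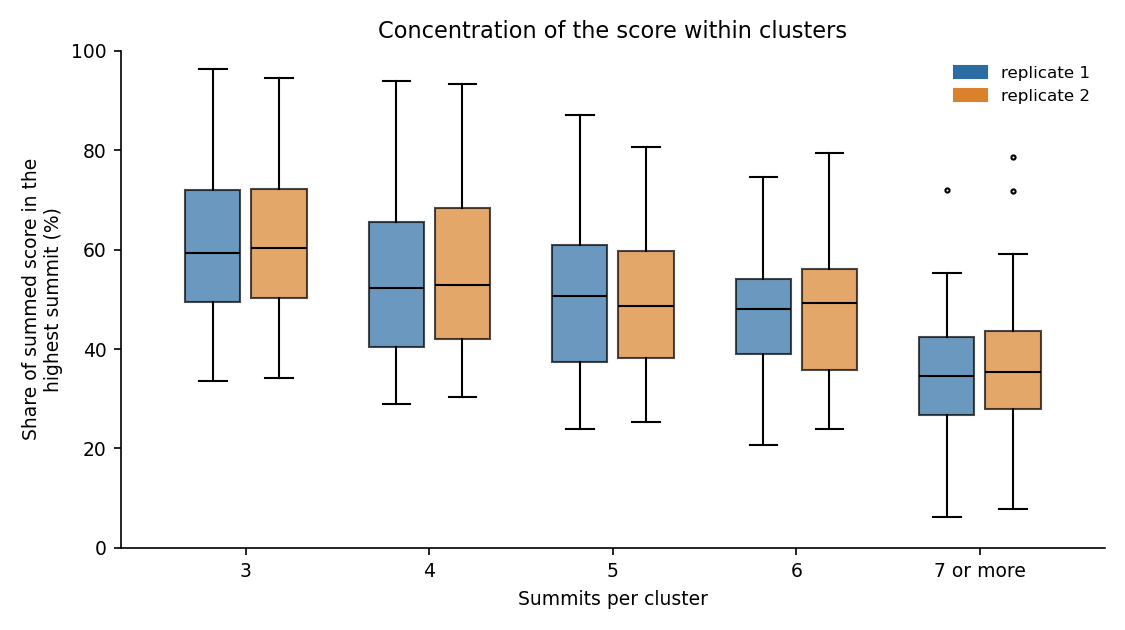
Share of a cluster's summed score held by its highest summit (vertical axis, percent) by summits per cluster (horizontal axis) and replicate (blue 1, orange 2). Boxes give quartiles, black lines medians, whiskers reach the last value within 1.5 times the box height, and points lie beyond; the replicate 1 median is 59.3% with 3 summits and 34.6% with 7 or more.

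Clustered sites had scores close to those of the other sites. The median score of members was 20.1 in replicate 1, against 19.3 for the 15882 retained sites outside clusters, and 31.1 against 31.1 in replicate 2. Their upper quartiles were 48.5 against 41.3 in replicate 1 and 77.2 against 69.6 in replicate 2. The highest 10% of the replicate 1 list held 16.8% of members and 14.0% of the others, and the highest 10% of the replicate 2 list held 21.6% and 19.5%. Paired summits lay a median of 30 bp apart in members and 29 bp in the others. These differences were not tested.

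The cluster over WWTR1, which encodes the Hippo pathway coactivator TAZ, had the highest summed score in both replicates. It ran over 65079 bp of chromosome 3, from 149576222 to 149641301, and all of its 10 summits lay in intron 3 of 7. The first summit scored 507 in replicate 1 and 701 in replicate 2, and the last scored 451 and 618. Between them stood 4 summits with replicate 1 scores of 72.7 to 128 and replicate 2 scores of 146 to 201, and 4 weaker ones that scored 5.76 to 50.3 and 6.22 to 34.3. The strong summits thus lay at both ends of the cluster, in both replicates.

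The cluster near LOC645166, intergenic at all of its summits, ranked 2 in replicate 1 with a sum of 1196 and 4 in replicate 2 with 1130. Its 31 summits scored from 3.47 to 73.8 with a median of 41.3 in replicate 1, and from 4.60 to 89.1 with a median of 35.8 in replicate 2. No summit held more than 6.18% of the sum in replicate 1 or 7.88% in replicate 2. The cluster of 12 near LOC441666 ranked 3 in replicate 1 with 946 and 25 in replicate 2 with 797. Its scores ran from 41.4 through a median of 73.8 to 125 in replicate 1, and from 22.9 through 68.3 to 104 in replicate 2. In both of these clusters the sum was spread over many summits, whereas at WWTR1 the highest summit alone held 34.5% and 33.8% of it. The median scores of both clusters lay above those of all members, which were 20.1 in replicate 1 and 31.1 in replicate 2.

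**Figure D3:**
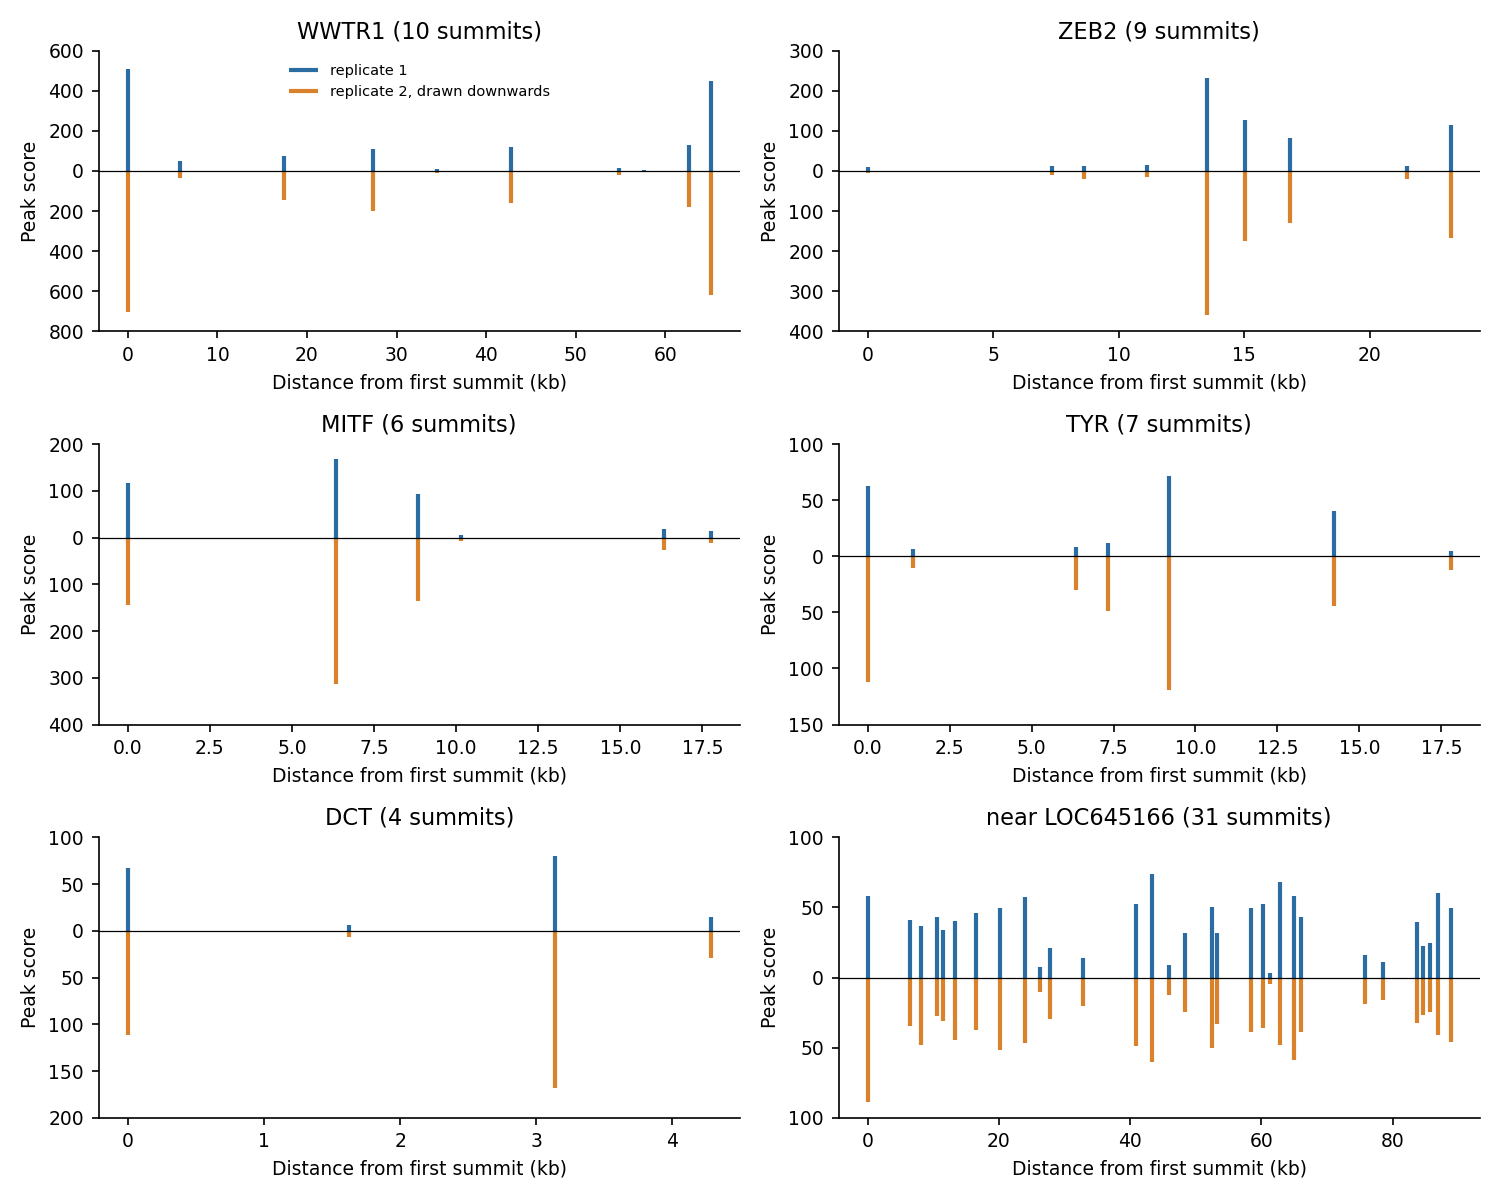
Each panel shows a cluster, with distance from its first summit in kb (horizontal axis) and peak score (vertical axis); each summit is a line, upwards for replicate 1 (blue) and downwards for replicate 2 (orange), and scales differ between panels. WWTR1 has its highest scores, 507 and 451 in replicate 1, at the ends, while the 31 summits near LOC645166 stay between 3.47 and 73.8.

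The other clusters among the highest 12 by replicate 1 sum covered coding genes, microRNA host genes and intergenic sequence. EPAS1, which encodes the hypoxia-inducible factor HIF-2alpha, lay under 4 summits with sums of 757 and 893, of which the highest scored 496 and 614. KAT2B, a histone acetyltransferase gene, lay under 3 summits with sums of 728 and 817, and 1 of them scored 701 and 773. TRIO, a guanine nucleotide exchange factor gene, had 11 summits in its first intron with sums of 680 and 985. Its highest scored 370 and 490, and its lowest 2.52 and 7.26. The MIR3142HG cluster held 6 summits with sums of 796 and 1279, and the MIR3681HG cluster 4 with 670 and 914.

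Of the remaining 4, the cluster near DAB2, an endocytic adaptor gene, held 6 summits with sums of 695 and 1045. The clusters near LINC01622, over LOC105369165 and near SPATA31D5P held 3 summits each. Their sums were 911 and 1223 near LINC01622, 888 and 1068 over LOC105369165, and 725 and 835 near SPATA31D5P. Of the 12, 7 were also among the highest 12 of replicate 2.

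The clusters with the most summits were mostly not the ones with the highest sums. The cluster over QPCT, which encodes glutaminyl-peptide cyclotransferase, held 13 summits over 58614 bp with sums of 622 and 988, ranks 18 and 8. Of these summits, 5 lay inside QPCT and 8 were annotated as intergenic. A cluster that overlapped LOC107986141 and LOC107986142 on chromosome 3 held 13 summits, all annotated as intergenic. Its sums were 430 and 628, rank 46 in both. The cluster over NBPF1, a member of a family of near-identical copies, held 15 summits, 11 of them inside the gene. Its sums were 299 and 245, ranks 111 and 294. The 16 summits near LOC441666 had sums of 435 and 344, ranks 44 and 180, and no summit above 56.4 in replicate 1 or 61.4 in replicate 2. Multigene families and repeats can share reads. Whether they did at the clusters over NBPF1 and near LOC441666 was not tested, and the summits there are held uncertain. The 31 summits near LOC645166 are held uncertain as well, although that cluster lay farther than 1 Mb from any replicate 1 summit annotated to a satellite.

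Among pigment genes, clusters overlapped TYR, DCT, PMEL, MLANA, SLC45A2 and SLC24A5, 6 of 33 listed genes of pigment production and melanosomes. TYR encodes tyrosinase, the enzyme that starts melanin synthesis. Its cluster held 7 summits from 89168668 to 89186452 on chromosome 11. From upstream to downstream the scores were 62.8, 6.43, 8.54, 11.6, 71.4, 40.6 and 4.50 in replicate 1, and 112, 10.6, 30.0, 48.8, 120, 44.2 and 12.2 in replicate 2. The first 4 lay in intergenic sequence, the fifth at the promoter and the last 2 in intron 1. The promoter summit and the far upstream summit, 9204 bp before the annotated start, were the highest in both replicates. The cluster ranked 201 and 148 by sum.

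DCT encodes dopachrome tautomerase, which acts after tyrosinase on the way to eumelanin. Its 4 summits lay within 4282 bp and scored 66.8, 5.76, 80.4 and 14.9 in replicate 1, and 111, 6.91, 168 and 29.0 in replicate 2, in order along chromosome 13. The promoter summit was the highest in both. SLC45A2, a melanosomal transporter gene, had 4 summits that scored 8.54, 3.24, 63.4 and 55.4 in replicate 1, and 10.6, 5.71, 96.8 and 116 in replicate 2. Here the promoter summit was the highest in replicate 2 but second in replicate 1.

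PMEL encodes the protein that forms the fibrils on which melanin is laid down, and it shared a cluster with its neighbour CDK2, a cell cycle kinase gene. Of the 3 summits, those in PMEL scored 13.4 and 8.73 in replicate 1 and 6.92 and 24.2 in replicate 2. The third lay in intron 5 of 6 of CDK2 and scored 165 and 218, so most of the sum lay over CDK2. The cluster over MLANA, a melanosome protein gene, held 3 summits, 2 of them inside the gene. All 3 lay within the span of another coding gene, BRD10, which encloses MLANA. They scored 79.6, 122 and 6.43 in replicate 1 and 121, 255 and 19.2 in replicate 2. The cluster over SLC24A5, a cation exchanger gene, held 4 even summits of 14.9 to 29.0 and 25.1 to 45.3. Of these, 2 lay inside the gene and 2 were intergenic. HPS3, which encodes a subunit of a complex needed to build melanosomes, lay within 10 kb of a cluster of 3 over CP, the ceruloplasmin gene, with sums of 285 and 416.

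Of 22 listed transcription factors of the melanocyte lineage, 6 were overlapped, namely MITF, ZEB2, SOX5, ETV1, ETV5 and LEF1. The MITF cluster held 6 summits from 69920274 to 69938028 on chromosome 3. Their scores were 118, 168, 92.2, 6.43, 17.5 and 13.7 in replicate 1, and 144, 313, 135, 6.91, 27.0 and 12.1 in replicate 2. The first 4 lay in intron 2 of 9 of a longer transcript, the fifth at the promoter of a shorter transcript and the last in an exon. The strong sites were therefore the first 3, and the highest lay 9984 bp before the annotated promoter. The promoter site itself scored 17.5 and 27.0.

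ZEB2, a zinc-finger repressor gene of the lineage, had the highest summed score of the lineage genes, 618 and 903. Its 9 summits scored 9.28, 11.6, 12.4, 15.8, 233, 126, 82.0, 13.3 and 114 in replicate 1. In replicate 2 they scored 6.22, 10.6, 19.2, 15.6, 358, 176, 130, 21.1 and 166. The same 4 summits were the highest in both replicates. These lay toward the start of the gene, where the antisense gene ZEB2-AS1 also runs.

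SOX5, a SoxD factor gene, lay under 5 summits in intron 4 of 17 that scored 4.50, 48.5, 8.54, 111 and 179 in replicate 1 and 26.0, 93.1, 16.5, 185 and 316 in replicate 2. ETV1 and ETV5 encode ETS factors that act downstream of MAPK signalling, and lay under 5 and 4 summits. ETV1 had sums of 229 and 397, and 3 of its summits lay upstream of the start in intergenic sequence. ETV5 had sums of 213 and 289, with its highest summit, 135 and 178, in exon 6 of 13. LEF1, a nuclear effector gene of Wnt signalling, had the weakest of these clusters, with 4 summits of 7.38 to 21.2 and 8.93 to 26.0.

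Some listed genes without a cluster still had retained sites within 10 kb, and others had none. The matching counts over all protein-coding genes were not computed. Of the 43 pigment and lineage genes not overlapped, 15 had no retained site within 10 kb, 16 had isolated sites only, 11 had sites linked at most in pairs and 1, HPS3, had the cluster over CP nearby. SOX10, TYRP1, IRF4 and TBX3 itself were among those with isolated sites, and PAX3, KIT and MC1R among those with pairs.

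Protein-coding genes overlapped by clusters had a higher median length than the rest. Of 19970 genes, 403 (2.02%) were overlapped by a cluster span. Their median length was 131 kb, against 23.5 kb for the genes not overlapped. Among 3351 genes of 100 kb or longer, 246 (7.34%) were overlapped, and among 16619 shorter genes 157 (0.945%). The 100 kb split was chosen after the values were seen. The overlapped genes include other members of multigene families, such as SRGAP2B, SRGAP2C, NBPF14 and several USP17L genes. Shared reads were not examined for any of them, and they were not set apart. A longer gene offers more sequence for a cluster to fall on, so the counts of each list are also given for its genes of 100 kb or longer (long, 7.34% over all genes) and under 100 kb (shorter, 0.945% over all genes).

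The pigment list had 6 of 33 genes overlapped (18.2%), of which 2 were among its 12 long genes and 4 among its 21 shorter ones. The lineage list had 6 of 22 (27.3%), 5 of them among 7 long genes and 1 among 15 shorter ones. MAPK feedback and ETS output genes had 4 of 20 (20.0%), 2 of 4 long and 2 of 16 shorter. These were ETV1 and ETV5 with ETV4, another PEA3 factor gene, whose 4 summits over it and its neighbour DHX8 summed to 127 and 170, and SPRED1, an inhibitor of Ras signalling with 3 summits and sums of 55.4 and 59.8. ETV1 and ETV5 stand in both of these lists. All 3 lists had larger shares than the 2.02% of all genes, and the difference was not tested, since the lists were chosen with results of these data known.

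Axon guidance genes had 9 of 28 overlapped (32.1%), all among the 25 that are 100 kb or longer. The median length of that list was 290 kb. SEMA5A, NRP2, EPHA5 and SEMA3C had the highest clusters by replicate 1 sum. NRP2 encodes a semaphorin and VEGF co-receptor and had sums of 323 and 458. EPHA5 encodes an ephrin receptor and had 243 and 309, and SEMA3C encodes a secreted semaphorin and had 227 and 366.

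The remaining lists had at most 2 genes each under clusters. Genes of the invasive, dedifferentiated melanoma state had 1 of 21 (4.76%), 1 of 5 long and 0 of 16 shorter. It was TEAD1, a Hippo pathway factor gene with 2 clusters of 4 and 5 summits. The stronger of the TEAD1 clusters had sums of 122 and 252. Cell cycle and apoptosis genes had 2 of 22 (9.09%), of which CDK6 was 1 of 4 long genes and CDK2 1 of 18 shorter ones. The shares of these lists were also above the 2.02% of all genes, as was that of the axon guidance list. They rest on 1 and 2 genes, and the differences were not tested. T-box targets known from other work had 0 of 16, with 1 long gene among them, and keratinocyte and fibroblast markers 0 of 20, also with 1. The 2.02% of all genes amounts to less than 1 gene in a list of 16 or 20.

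**Figure D4:**
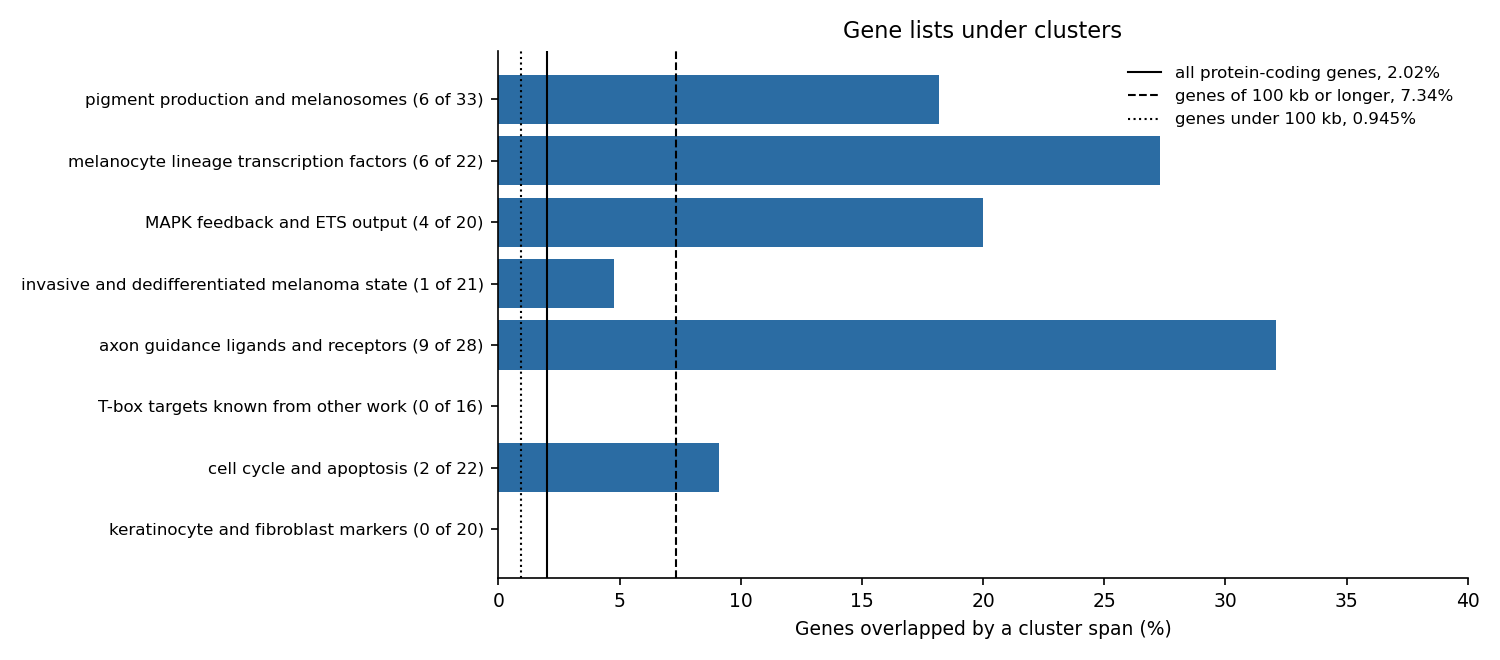
Percentage of each gene list overlapped by a cluster span (bars, horizontal axis), with counts in the labels. Vertical lines give all protein-coding genes (solid, 2.02%), genes of 100 kb or longer (dashed, 7.34%) and genes under 100 kb (dotted, 0.945%); the axon guidance list reaches 32.1% and the T-box target list 0.

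A single cluster covered 352 of the 403 genes, and 51 had more. SYN3, AFF3 and NEDD4L had 4 each, and PDE4B, DLGAP1 and PTPRJ had 3. SEMA5A, which encodes a transmembrane semaphorin, had 7, the most of any gene, and was singled out for that after the values were seen. It held 53 retained sites, of which 44 were clustered, and its clusters covered 185 kb of the gene's 511 kb (36.2%). Clustered scores ran from 2.25 through a median of 13.9 to 264 in replicate 1 and from 3.68 through 17.0 to 350 in replicate 2. The median lay below that of all members in both replicates, so SEMA5A carried many sites of modest score.

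The 7 SEMA5A clusters differed in make-up. The largest had 12 summits with sums of 308 and 434. The highest by sum had 8 summits with 390 and 599. In a cluster of 4 summits, 1 site scored 264 and 350 and held 94.0% and 93.2% of the sum. The weakest had 3 summits with sums of 23.9 and 20.2. The 10 Mb at the start of chromosome 5, in which SEMA5A lies, held 16 clusters and 81 clustered of 189 retained sites (42.9%). It had more clusters, and more retained sites, than any other 10 Mb window. Its clustered share was exceeded elsewhere, as at 40 to 50 Mb on chromosome 10, with 54.9% of 51 retained sites. The number of chromosome copies in the line was not measured here, and its part in the counts at the start of chromosome 5 was not tested.

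**Figure D5:**
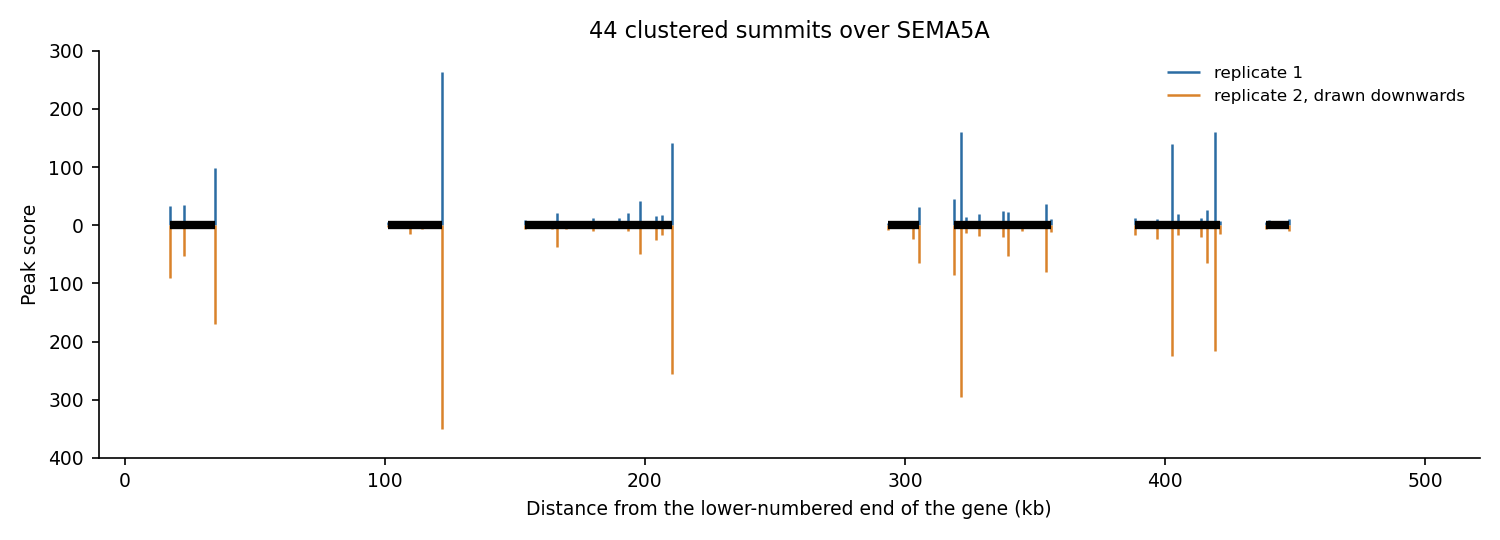
Peak score (vertical axis) of the 44 clustered summits over SEMA5A by distance from the lower-numbered end of the gene in kb (horizontal axis), upwards for replicate 1 (blue) and downwards for replicate 2 (orange). Thick black bars mark the 7 clusters; single sites reach 264 and 350 while the medians are 13.9 and 17.0.

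Members lay in introns more often than the other sites. Of the 2837, 1553 (54.7%) were intronic, against 46.9% of the others, and 1097 (38.7%) intergenic, against 45.5%. Promoters held 60 members (2.11%), against 3.23%. Of the 750 clusters, 332 were intronic at every summit, 243 intergenic at every summit, and 56 held a promoter summit. A protein-coding gene was overlapped by 438, and 361 lay wholly inside one. A further 164 overlapped only genes of other kinds, and 148 overlapped no gene of the RefSeq table. The median distance to the nearest transcription start was 34905 bp for members and 37349 bp for the others.

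Repeats covered 776 members (27.4%), against 30.2% of the other sites. LINE elements held 6.34% against 8.85%, and LTR elements 10.4% against 13%. Simple repeats held 64 members (2.26%) against 0.674%, and 37.4% of all retained sites in simple repeats were clustered. Of these 64, 11 lay in the single cluster of 16 summits near LOC441666, which is held uncertain above. The share of retained sites that were clustered ran from 4.32% on chromosome X, with 13 members, and 6.57% on chromosome 19 to 20.9% on chromosome 22 and 21.1% on chromosome 16. None of these differences was tested.

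At the linking threshold the members resembled their neighbours. A gap over 12 kb occurred in 55 clusters, whose median replicate 1 sum was 144. Linking up to 13 kb would add 110 sites with a median replicate 1 score of 23.5, and linking only up to 12 kb would remove 115 sites with a median of 21.2. The median score was 19.3 in isolated sites, 19.3 in pairs and 20.1 in clusters of 3.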

How the data were processed

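TBX3-3xHA ChIP-seq was analysed from the 2 immunoprecipitated samples, grouped by their titles. Each deposited list held the summits of 1 sample, annotated by HOMER annotatePeaks.pl against hg38, per the file headers. The authors deposited a peak score for each summit, on a scale that is not stated. The distance to the nearest start, nearest gene, annotation class and repeat are also the authors' deposited values. The submitters' processing notes name FastQC 0.11.7, cutadapt 2.8, Bowtie2 2.3.5, MACS2 2.1.2 and SAMtools 1.9, and their settings are not given in the sources used here. Read depth is unknown, so no value could be scaled to it. The lists held 32479 and 40494 summits.

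Pairing, linking and counting were done in Python 3.11.15 with pandas 2.3.3 and numpy 2.4.6, and the linking was tested on simulated positions. Of the shared sites, 3633 in satellites and 350 on other sequences were left out. Gene spans, names and promoters came from RefSeq for GRCh38.p14, and a gene counted as overlapped when its span met the span from first to last summit. The named clusters were the 12 highest by replicate 1 sum, the 8 with most summits, and those over or within 10 kb of pigment or lineage genes. In other lists every overlapped gene was named up to 6, and otherwise the 4 with the highest sums. The members and lists were chosen with earlier results of these data known. No test was run. Alternatives varied the linking and pairing distances, cluster size, satellites, scores and replicates.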

Additional observations from a re-analysis of the deposited data

How the results depend on the processing

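Of 62 recomputed values, 32 stayed within 1.5 times the count, or within the 95% interval of the median, and 30 moved further. That interval is over clustered summits or over clusters, taken as independent. It serves only as a yardstick and does not measure spread between replicates. Linking at 5 kb gave 298 clusters, 1032 clustered summits, 147 protein-coding genes, 6 pigment and lineage genes in place of 12, and a median span of 5746 bp. Linking at 25 kb gave 1298 clusters, 5337 summits, 802 genes and 26392 bp. Asking for at least 4 summits gave 278 clusters, 1421 summits, 168 genes and 19024 bp. Using only sites with both scores at or above the list median gave 287 clusters, 1015 summits, 176 genes, 7 pigment and lineage genes and a median score of 40. With satellite summits retained there were 5886 clustered summits, with a median score of 21.2 and a median span of 13796 bp. Pairing within 100 bp and 500 bp gave median scores of 23.1 and 18.1. Leaving out a replicate gave 1579 to 2318 clusters, 6591 to 9965 summits and 801 to 1055 genes. The median replicate 1 score was 11.5 without replicate 2 and has no value without replicate 1. These sets hold different sites by construction. Leaving out clusters within 1 Mb of a satellite summit, an alternative added after the data were seen, left all 6 values within these limits.

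The share of pigment and lineage genes overlapped was above that of all genes under each setting for which both shares were computed, from 10.9% against 0.736% at 5 kb to 32.7% against 5.28% without replicate 1. Counting clusters within 10 kb of a gene gave 13 listed genes, and the share of all genes was not computed for it. With 2 replicates of 1 line, unknown depth and a score of unstated scale, no error is given for a single cluster's score.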

Other observations

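The cluster spans also held summits that were not matched between the replicates. In replicate 1, 329 of the 3166 summits within the spans had no partner, in 198 clusters, and in replicate 2 it was 521 of 3358, in 317 clusters. The largest SEMA5A cluster held 5 such summits in replicate 1 beside its 12 shared ones, and 8 in replicate 2.

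Of 1911 microRNA genes in the RefSeq table, 20 (1.05%) were overlapped by a cluster. These included MIR3142, in the cluster with the second highest sum of replicate 2, and MIR4636, inside SEMA5A.

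Clusters were spread unevenly along chromosomes. Over 308 windows of 10 Mb with retained sites the median was 2 clusters, and 72 windows had none. Retained sites were uneven too, with a median of 56.5 per window. After the start of chromosome 5, the next highest count was 12 clusters, at 20 to 30 Mb on chromosome 16. That window held 100 retained sites, of which 37 (37%) were clustered. Next came 10 to 20 Mb on chromosome 6, with 11 clusters and 46 clustered of 148 retained sites (31.1%). Over all retained sites, 15.2% were clustered.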
